A study of Mus musculus with 16 samples.

Results

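Within each of 4 groups of sorted mouse spermatogonia, the 4 libraries were ranked by the level of Acta2, the gene for smooth muscle actin. The upper 2 of each group formed an Acta2-high set of 8 libraries, which was compared with an Acta2-low set of the lower 2 of each group, again 8 of the 16 libraries. The sets are not groups of the study: the labels name no sort on Acta2, and the members were chosen by their measured Acta2 values. All mice received busulfan at 10 mg/kg, an alkylating agent toxic to dividing germ cells, and from day 3 were injected daily for 7 days, with sampling at day 10. KO_PD and KO_vehicle are mice with a Spry4 knockout, named G-KO in the sample titles. They were given the MEK inhibitor PD0325901 at 2.5 mg/kg or vehicle with 10% DMSO. WT_PD and WT_vehicle are wild-type mice given the same injections. Spry4 encodes a feedback inhibitor of growth factor signalling to the kinase ERK, which MEK activates. The knockout libraries carry GCRT_Spry4KO in their column names and the wild-type libraries Spry4ff. The surface markers of the sort, the part of Spry4 removed, the ages of the mice and whether replicates came from separate mice are not given in the sources at hand. Libraries are named by group and replicate number, as KO_PD 4.

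Seminiferous tubules are wrapped in peritubular myoid cells, flattened contractile cells that express the smooth muscle genes Acta2, Myh11 and Tagln, and smooth muscle also lines the arteries of the testis. Undifferentiated spermatogonia lie on the basement membrane next to the myoid cells. They are not known for smooth muscle genes and are marked by germ cell genes such as Zbtb16, Sall4 and Ddx4. The sets therefore show which other transcripts went up or down with smooth muscle transcripts across these sorted samples.

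Acta2 (ENSMUSG00000035783, GRCm38 chromosome 19, 34241090 to 34255590, minus strand) was high in every library. In KO_PD the upper pair had 3937 and 1803 FPKM (read fragments per kilobase of transcript, scaled to the size of the library, a level comparable between genes), against 1800 and 1345 FPKM in the lower pair. In KO_vehicle the upper pair had 2910 and 1751 FPKM, against 988 and 538 FPKM in the lower pair. The division was widest in WT_PD, with 5095 and 3035 FPKM in the upper pair against 571 and 367 FPKM in the lower pair. In WT_vehicle the upper pair had 3154 and 2890 FPKM, against 1986 and 945 FPKM in the lower pair. In KO_PD the libraries just inside and just outside the division, KO_PD 1 and KO_PD 3, differed by 0.164%, so their placement rests on a negligible difference. Across groups the sets overlapped: WT_vehicle 4, in the Acta2-low set, had more Acta2 than KO_PD 1 in the Acta2-high set. The log2 difference, Acta2-high minus Acta2-low, averaged 1.66 over the groups (3.16-fold). It was 0.78 in KO_PD, 1.63 in KO_vehicle, 3.10 in WT_PD and 1.14 in WT_vehicle. These values chose the sets and were not tested.

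**Figure D1:**
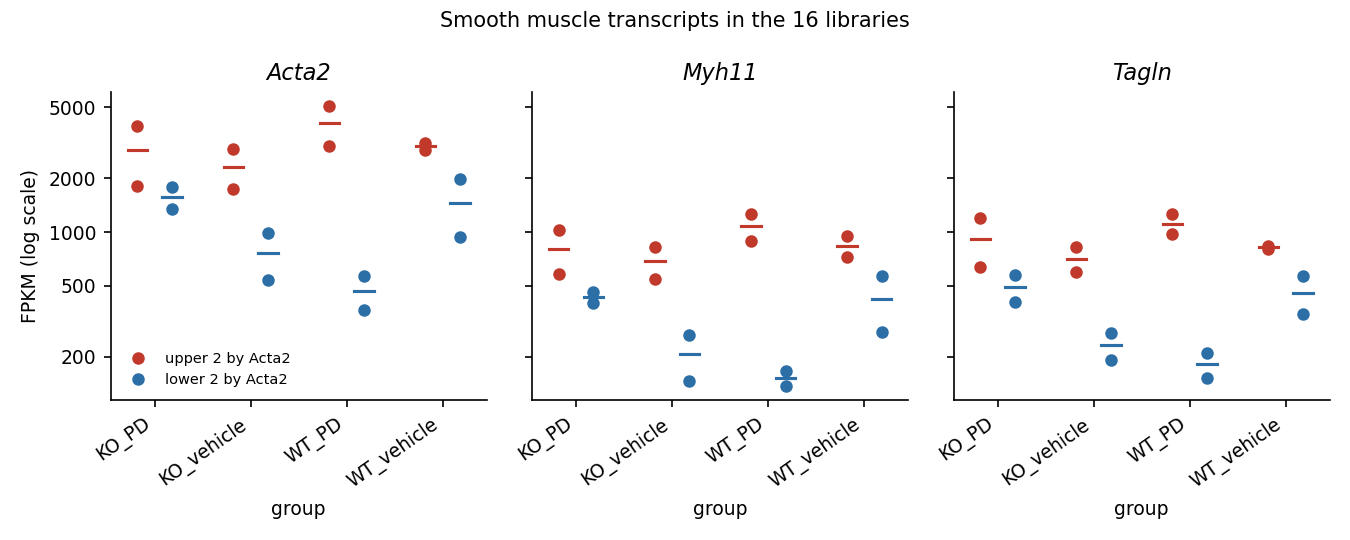
FPKM on a log axis of Acta2, Myh11 and Tagln in each library (points), by group, with the upper 2 libraries by Acta2 left of the lower 2 and short lines for the means of each pair. All 3 genes placed the same libraries in the upper pair of every group, and the pairs lay closest in KO_PD.

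Ranking by Myh11 or by Tagln gave the same 8 and 8 libraries. Myh11 (ENSMUSG00000018830, chromosome 16, 14194535 to 14291372, minus strand), the myosin heavy chain of smooth muscle, had 548 to 1270 FPKM in the Acta2-high set (median 857), against 137 to 571 FPKM in the Acta2-low set (median 271). Its log2 difference was 1.62 (SE 0.28, limma adjusted p = 0.00176). Tagln (ENSMUSG00000032085, chromosome 9, 45929619 to 45936058, minus strand), an actin-bundling protein of smooth muscle, had 595 to 1258 FPKM in the Acta2-high set (median 830), against 153 to 575 FPKM in the Acta2-low set (median 310). Its log2 difference was 1.49 (SE 0.25, adjusted p = 0.00176). Because both genes rank the same libraries into the upper pairs, their pairs cannot overlap in any of the 4 groups. That separation is therefore no further result. The p-values of both genes likewise refer to a division that each of them would have made itself.

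The Acta2-low libraries were not free of smooth muscle transcripts. Genes of the contractile list took 2.83% to 5.89% of all FPKM in the Acta2-high set (median 4.23%), against 0.845% to 3.08% in the Acta2-low set (median 1.64%). These shares include Acta2 itself, with a median of 1.21% in the Acta2-high set and 0.455% in the Acta2-low set. The contrast between the sets is thus partly built in by their choice and was not tested. Germ cell markers were present in every library of both sets. Zbtb16, a transcriptional repressor needed to maintain spermatogonial stem cells, had 85.6 to 122 FPKM in the Acta2-high set (median 108), against 112 to 125 FPKM in the Acta2-low set (median 122). The label of undifferentiated spermatogonia thus had its markers in all libraries, with smooth muscle transcripts beside them. In bulk samples, a difference in the number of cells of a type and a difference in RNA per cell cannot be told apart.

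The promoters of 3 contractile genes are shown because serum response factor, which drives smooth muscle genes, binds the CArG box, a run of A and T bases between a pair of C and a pair of G. The sequences are the 250 bases before the gene start, 5′ to 3′ on the gene's strand, from RefSeq on GRCm38.p6. Gene start here means the RefSeq start. It differs from the start in the annotation used for the other positions, so all 3 windows overlap the gene as placed there. Capitals mark CArG boxes in Myl9, a myosin light chain, and in Srf, which encodes the factor itself. In Acta2 capitals mark near matches, in which 1 of the inner bases is not A or T. Myl9 also holds 1 near match of this kind, left in lower case.
Acta2, chr19:34255374-34255623, minus strand: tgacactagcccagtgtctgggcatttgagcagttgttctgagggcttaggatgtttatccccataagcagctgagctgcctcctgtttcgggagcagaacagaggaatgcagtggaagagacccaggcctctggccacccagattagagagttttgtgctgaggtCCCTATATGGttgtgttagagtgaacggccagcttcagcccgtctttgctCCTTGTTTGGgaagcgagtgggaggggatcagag
Myl9, chr2:156775214-156775463, plus strand: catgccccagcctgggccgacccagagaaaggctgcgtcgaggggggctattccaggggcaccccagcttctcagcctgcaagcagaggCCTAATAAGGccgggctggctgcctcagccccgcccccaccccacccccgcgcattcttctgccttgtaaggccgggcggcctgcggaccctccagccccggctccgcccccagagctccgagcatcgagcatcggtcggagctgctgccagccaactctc
Srf, chr17:46556163-46556412, minus strand: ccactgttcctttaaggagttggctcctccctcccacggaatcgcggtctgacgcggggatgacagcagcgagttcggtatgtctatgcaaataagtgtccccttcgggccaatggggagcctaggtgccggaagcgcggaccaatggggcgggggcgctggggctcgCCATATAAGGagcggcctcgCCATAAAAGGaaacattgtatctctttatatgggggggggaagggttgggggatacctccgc
The Acta2 near matches start 84 and 34 bases before the gene start. The Myl9 box starts 161 bases before it, and the Srf boxes start 82 and 62 bases before it. The pattern searched, though not each single box, is the same on both strands, so the search covers both. Over all 27025 promoters of the RefSeq table, 1.62% held a CArG box in this window. It was held by 60 of the 2571 promoters found for genes higher in the Acta2-high set (2.33%) and by 18 of the 1466 found for genes lower there (1.23%). Among genes more than 1 log2 unit higher it was held by 13 of 325 (4%), and in the contractile list by 2 of 18. Those 2 are the Myl9 and Srf promoters shown above, so the sequences shown are not typical of that list. A match is a description of the letters in the window and not evidence of a bound site.

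Over the whole transcriptome, 12906 genes were tested with limma, with Acta2 left out and the group as a block. Of these, 3355 (26.0%) were higher and 1922 (14.9%) lower in the Acta2-high set at an adjusted p under 0.05, together 5277 (40.9%). The higher genes moved further than the lower ones. A log2 difference above 1 was seen in 453 of the higher genes, whose median was 0.51, and one below -1 in 6 of the lower genes, whose median was -0.26. The median of all genes tested was 0.0041. The pairs did not overlap in any of the 4 groups for 1244 higher (9.64%) and 294 lower genes (2.28%), and 18 called genes exceeded the 1.66 of Acta2 itself. Because the sets were made from a measured level, these are associations with Acta2, and the p-values reflect only the spread between libraries.

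The balance between the directions depended on scaling. When each library was centred on its median gene, 2658 genes were higher (20.6%) and 4134 lower (32.0%). After quantile normalization the counts were 2655 (20.6%) and 4175 (32.3%), and scaled to the total without the contractile list they were 2479 (19.2%) and 4403 (34.1%). These scalings moved the median of all genes to between -0.113 and -0.093. All 1922 lower genes stayed lower under them. The lower count also rested on the WT_PD libraries, since it was 1114 without WT_PD 1 and 1191 without WT_PD 3. Without all 4 WT_PD libraries, 1812 genes were higher and 347 lower, and of 122 called genes recomputed singly, 56 lost the call.

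**Figure D2:**
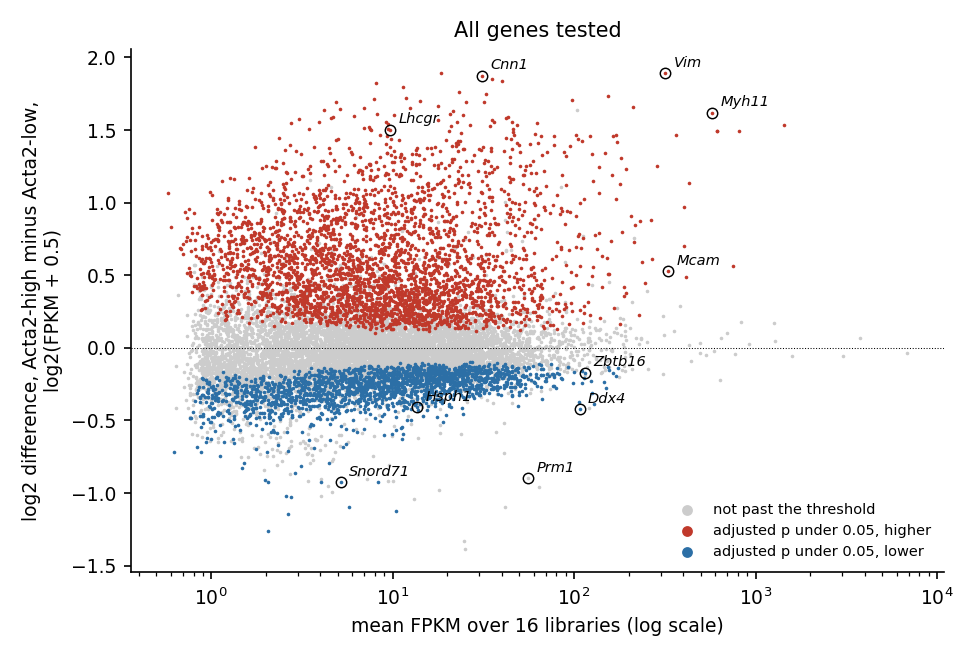
Log2 difference, Acta2-high minus Acta2-low, on the log2(FPKM + 0.5) scale against mean FPKM on a log axis, 1 point per gene tested, coloured by whether limma's adjusted p was under 0.05. The 3355 higher genes reached 1.89 (Vim), while most of the 1922 lower genes lay between 0 and -0.5.

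Several values of whole libraries were compared by permuting the set labels within groups, with a two-sided exact test over all arrangements. Exchanging the sets in every group gives a difference of the same size, so the smallest possible p of this test is 0.00154. The library divisors, estimated from the smallest steps of the FPKM values, averaged 29639500 ± 5112550 in the Acta2-high set and 29094700 ± 3824400 in the Acta2-low set (SD, n = 8 each; exact permutation p = 0.812). The reads in listed genes came to 100.3% ± 6.43 of the divisor in the Acta2-high set and 90.1% ± 2.13 in the Acta2-low set (SD, n = 8 each; exact permutation p = 0.00154, adjusted over 7 values 0.0108). The summed FPKM was higher with it, at 243238 ± 18566 in the Acta2-high set and 216540 ± 8517 in the Acta2-low set (SD, n = 8 each; exact permutation p = 0.00926, adjusted 0.0324). The summed FPKM and the reads in listed genes both count Acta2, which chose the sets. Acta2 averaged 3072 FPKM in the Acta2-high set and 1067 FPKM in the Acta2-low set. The tests of these 2 values are therefore not independent of the choice. The number of genes at 1 FPKM or more and the shares of FPKM in spermatid, mitochondrial and ribosomal protein genes did not pass the test (exact permutation p from 0.0772 to 0.863). The reads in listed genes reached 112.6% of the divisor in WT_PD 3, so there the divisor is not a plain total of these reads. Whether it holds a scaling factor, and the part of these library values in the gene differences, were not tested. The first principal component of all genes, which held 52.7% of the variance, had scores of 0.18 to 48.9 in the Acta2-high set and -50.7 to 3.99 in the Acta2-low set.

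All 23 contractile genes tested were past the threshold and higher in the Acta2-high set, beside 26.0% of all genes. They were listed because smooth muscle genes were known to follow Acta2 in these libraries, so the count is no independent support. Their log2 differences ran from 0.41 for Srf to 1.88 for Cnn1, with a median of 1.46, and 22 of them stayed past the threshold under each of the 3 other scalings. Cnn1, which encodes the actin-binding protein calponin, had 23.3 to 68.1 FPKM in the Acta2-high set (median 47.1), against 1.22 to 36.9 FPKM in the Acta2-low set (median 12.4). Pln, which encodes phospholamban, a brake on the calcium pump of the sarcoplasmic reticulum, had 18.5 to 42.0 FPKM in the Acta2-high set (median 24.1), against 1.37 to 17.1 FPKM in the Acta2-low set (median 8.54). Its sets did not overlap even across groups. Mustn1, a small protein of muscle and skeletal tissue, had 127 to 381 FPKM in the Acta2-high set, against 23.1 to 150 FPKM in the Acta2-low set. Each of the 3 genes was separated in all 4 groups, with log2 differences of 1.88 (SE 0.47), 1.66 (SE 0.34) and 1.74 (SE 0.33). The regulators sat lower in this range, with 1.34 for Myocd, the cardiac and smooth muscle coactivator, and 0.41 for Srf, its DNA-binding partner. The call of Srf was lost without any library but KO_PD 1, KO_PD 3, KO_vehicle 1, WT_vehicle 2 and WT_vehicle 4 (adjusted p up to 0.0893).

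Outside the lists, Vim (ENSMUSG00000026728, chromosome 2, 13573927 to 13582826, plus strand), the intermediate filament protein vimentin of mesenchymal cells, had 253 to 783 FPKM in the Acta2-high set (median 504), against 26.7 to 268 FPKM in the Acta2-low set (median 137). Its log2 difference of 1.89 (SE 0.39, adjusted p = 0.00289) was the largest of all genes called. Others of the 12 named by the rule included the striated muscle genes Tcap at 1.79 and Xirp1 at 1.71. The list also held the voltage-gated potassium channel gene Kcna5 at 1.65, the lipid droplet gene Plin4 at 1.65 and the synuclein gene Sncg at 1.70. Tcap had 10.1 to 26.0 FPKM in the Acta2-high set, against 1.24 to 10.8 FPKM in the Acta2-low set. The other 6, Mamdc2, Susd5, Mrgprh, Olfml2a, Lrrc10b and Adamtsl1, had log2 differences from 1.70 to 1.85. All 12 were separated in each of the 4 groups, as the rule required.

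Markers of other somatic cells moved unevenly. Of 15 stromal and matrix genes tested, 6 were higher and 1 lower, beside 26.0% and 14.9% of all genes, with a median log2 difference of 0.43. Igfbp7, a secreted protein that binds growth factors, had 393 to 912 FPKM in the Acta2-high set (median 578), against 160 to 437 FPKM in the Acta2-low set (median 274). The basement membrane collagen gene Col4a2 was 0.78 log2 units higher, and Col1a2 0.87. The call of Col4a2 was lost after quantile normalization (adjusted p = 0.0546). Col1a1, the partner chain of Col1a2 in type I collagen, was not called, at -0.14 (SE 0.12, adjusted p = 0.365). The fibroblast marker Dcn stayed at or below 0.5 FPKM in every library. The lower gene was Fn1, fibronectin, at -0.26.

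Among 9 pericyte genes, 3 were higher (33.3%, near the 26.0% of all genes) and none lower, with a median of 0.53. Cspg4, a proteoglycan of pericytes, had 21.2 to 53.3 FPKM in the Acta2-high set (median 31.2), against 6.86 to 24.8 FPKM in the Acta2-low set (median 15.1), a log2 difference of 1.14 (SE 0.24, adjusted p = 0.00297). Notch3, a receptor of mural cells, differed by 1.0 (SE 0.23, adjusted p = 0.00466). Rgs5, a much used pericyte marker, did not pass, at 0.39 (SE 0.33, adjusted p = 0.343). It had 142 to 490 FPKM in the Acta2-high set, against 86.1 to 459 FPKM in the Acta2-low set, so the sets overlapped almost fully. By group, Rgs5 differed by -0.15 in WT_vehicle and -0.24 in WT_PD, but by 1.13 in KO_vehicle and 0.83 in KO_PD. The interaction of group and set did not pass for it (limma F-test, adjusted p = 0.926).

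Of 10 endothelial genes, 2 were higher and 2 lower, shares near the 26.0% and 14.9% of all genes, with a median of -0.22. Esam, an adhesion molecule of endothelial junctions, had 27.6 to 53.9 FPKM in the Acta2-high set (median 32.8), against 10.6 to 26.4 FPKM in the Acta2-low set (median 14.9), with no overlap across groups. Eng, a coreceptor for TGF-beta, was 0.57 higher, while the endothelial transcription factor Erg was 0.38 lower (log2 difference -0.38, SE 0.12, adjusted p = 0.0207). The defining gene Pecam1 had at most 0.735 FPKM in the Acta2-high set, against at most 2.25 FPKM in the Acta2-low set. Cdh5, which encodes the cadherin of endothelial junctions, had 1.53 to 4 FPKM in the Acta2-high set, against 1.54 to 6.62 FPKM in the Acta2-low set.

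Of the Leydig cell list, 5 of 11 genes stood in the table and 4 were tested, of which 3 were higher, beside 26.0% of all genes. The remaining gene tested was not called, at -0.08, but was lower under each of the 3 other scalings. Lhcgr, the receptor for luteinizing hormone, had 8.84 to 24.1 FPKM in the Acta2-high set (median 13.8), against 1.77 to 10.1 FPKM in the Acta2-low set (median 5.09), a log2 difference of 1.5 (SE 0.26, adjusted p = 0.00176). The lipid-binding gene Fabp3 differed by 1.16 and Nr5a1, the steroidogenic transcription factor SF-1, by 0.96. Star, which carries cholesterol into mitochondria for steroid synthesis, had at most 0.821 FPKM in the Acta2-high set and at most 0.956 FPKM in the Acta2-low set. Of 8 Sertoli cell genes tested, 2 were higher, a share close to the 26.0% of all genes, and 5 of the 8 differences were negative (median -0.10). The higher genes were Inha, an inhibin subunit, at 1.05 and Gata4, a gonadal transcription factor, at 0.98. Sox9, the defining Sertoli cell factor, had 0.274 to 0.517 FPKM in the Acta2-high set, against 0.442 to 0.679 FPKM in the Acta2-low set. None of 4 macrophage genes tested was called, though all 4 differences were negative. Under each of the 3 other scalings 2 of these 4 were lower, beside 32.0% to 34.1% of all genes. Ptprc, the pan-leukocyte gene, had at most 0.0331 FPKM in any library, and 7 of 14 macrophage and leukocyte genes in the table never reached 1 FPKM. No erythrocyte gene reached the filter.

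**Figure D3:**
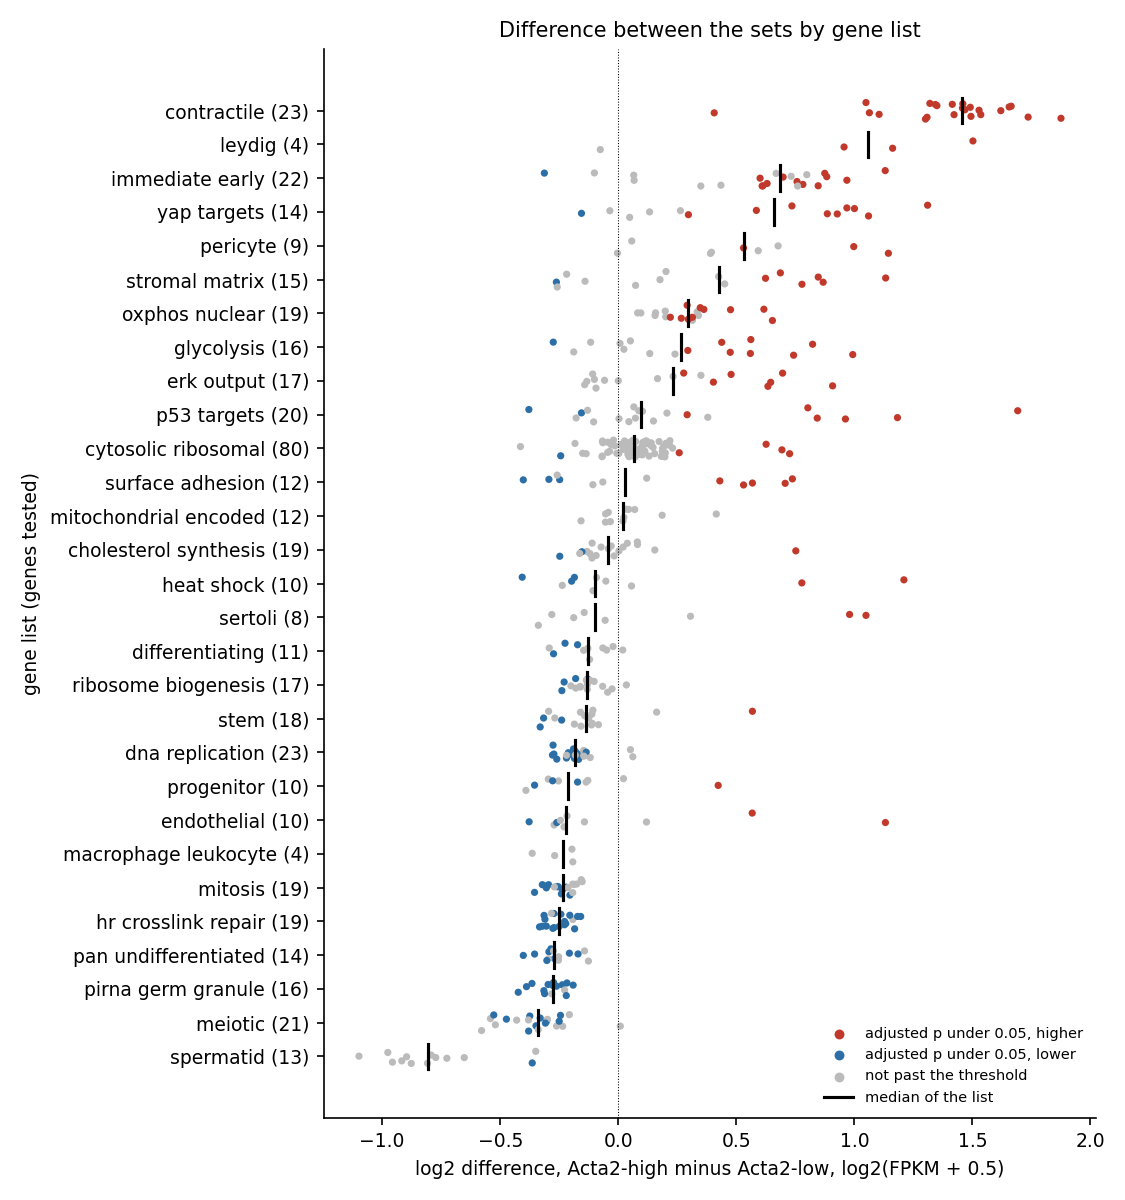
Log2 difference, Acta2-high minus Acta2-low, on the log2(FPKM + 0.5) scale for each gene tested in the gene lists, coloured by whether limma's adjusted p was under 0.05, with a black line at each list's median. The contractile list lies at a median of 1.46, the immediate early and YAP target lists at 0.68 and 0.66, and the germ cell, repair and cell cycle lists below 0.

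Surface proteins are used to sort spermatogonia, and some of their genes differed between the sets. Of 12 surface and adhesion genes, 5 were higher and 3 lower, beside 26.0% and 14.9% of all genes, and 6 of the 12 differences were positive. Their median of 0.03 turned to between -0.09 and -0.07 under the other scalings. Itgb1, the beta 1 integrin, had 156 to 303 FPKM in the Acta2-high set (median 188), against 81.2 to 143 FPKM in the Acta2-low set (median 123), with no overlap across groups (log2 difference 0.74, SE 0.13, adjusted p = 0.0018). Mcam, an adhesion molecule of both spermatogonia and vessel walls, had 323 to 471 FPKM in the Acta2-high set (median 378), against 209 to 322 FPKM in the Acta2-low set (median 266). Its log2 difference was 0.53 (SE 0.11, adjusted p = 0.00302) and shrank to 0.09 after quantile normalization. Cd9, a tetraspanin, had 70.5 to 144 FPKM in the Acta2-high set, against 57.2 to 94.7 FPKM in the Acta2-low set, and differed by 0.57. Ncam1 and Itgav were also higher, at 0.71 and 0.43. Among the 3 lower genes were Cdh1, the epithelial cadherin, at -0.40 and the laminin receptor subunit Itga6 at -0.25. The call of Cdh1 was lost when any 1 of 9 libraries was left out, WT_PD 1 among them (adjusted p = 0.0784). The others are KO_PD 2, WT_PD 2, WT_PD 3, WT_vehicle 2 and all 4 KO_vehicle libraries.

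The germ cell lists differed in how many of their genes passed, and the counts depended on scaling. After quantile normalization, 13 of 14 undifferentiated, 7 of 18 stem cell, 7 of 10 progenitor and 5 of 11 differentiating genes were lower. The counts were 18 of 21 for meiotic, 16 of 16 for piRNA and germ granule and 1 of 13 for spermatid genes. Of all genes, 32.3% were lower under that scaling. The counts that follow are those without it. Of 14 genes of undifferentiated spermatogonia, 8 were lower and none higher, beside 14.9% of all genes, with a median of -0.27. Sall4, a transcription factor of these cells, differed by -0.21 (SE 0.06, adjusted p = 0.0166) and Taf4b, a germ cell subunit of the transcription machinery, by -0.30 (SE 0.08, adjusted p = 0.0086). Zbtb16 differed by -0.17 (SE 0.06, adjusted p = 0.0482), and this call was lost when any library but KO_PD 1, WT_vehicle 3 or WT_vehicle 4 was left out (adjusted p up to 0.104). Of 18 stem cell genes, 3 were lower (16.7%, close to the 14.9% of all genes) and 1, Cd9, higher. Gfra1, the receptor for the niche factor GDNF, had 34.1 to 55.9 FPKM in the Acta2-high set (median 37.0), against 29.8 to 58.9 FPKM in the Acta2-low set (median 43.0). Its difference of -0.11 (SE 0.11, adjusted p = 0.456) did not pass, nor did those of the stem cell genes Id4 (-0.08), Nanos2 (-0.16) and Etv5 (-0.14).

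Of 10 progenitor genes, 3 were lower and 1, the stress-induced gene Ddit4, higher at 0.42, beside 14.9% of all genes lower and 26.0% higher. The call of Ddit4 was lost under each of the 3 other scalings, and without any library but KO_PD 1, KO_PD 3, KO_vehicle 1, KO_vehicle 2, WT_vehicle 1 and WT_vehicle 3 (adjusted p up to 0.0987). Tex14, a gene needed for the bridges between germ cells, had 29.3 to 41.7 FPKM in the Acta2-high set (median 37.6), against 39.6 to 51.3 FPKM in the Acta2-low set (median 44.5), a log2 difference of -0.28 (SE 0.07, adjusted p = 0.00905). Neurog3, a progenitor transcription factor, was not called at -0.14 (SE 0.20, adjusted p = 0.592). Of 11 genes of differentiating spermatogonia, 3 were lower (27.3%, beside 14.9% of all genes), namely Dnmt3b, Dmrt1 and Sohlh2 at -0.27, -0.23 and -0.17. The call of Sohlh2 was lost without KO_PD 2, that of Dmrt1 without any 1 of KO_PD 2, KO_PD 4, KO_vehicle 4 and WT_PD 1, and that of Dnmt3b without any 1 of these or of KO_vehicle 2, WT_PD 3 and WT_vehicle 1. All 3 calls were also lost with KO_PD 1 and KO_PD 3 exchanged. Without KO_PD 2 the adjusted p was 0.0520 for Dnmt3b, 0.0543 for Dmrt1 and 0.0534 for Sohlh2. Kit, the receptor gained on differentiation, had 1.46 to 4.5 FPKM in the Acta2-high set, against 1.95 to 3.29 FPKM in the Acta2-low set, and was not called (-0.07, SE 0.16, adjusted p = 0.763).

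The piRNA and germ granule list was the most uniform among the germ cell lists, with 14 of 16 genes lower, beside 14.9% of all genes, and a median of -0.27. These genes silence transposons and organize germ cell RNA. Ddx4 (ENSMUSG00000021758, chromosome 13, 112598333 to 112652475, minus strand), the RNA helicase of germ granules, had 68.8 to 112 FPKM in the Acta2-high set (median 94.5), against 93.5 to 144 FPKM in the Acta2-low set (median 121), a log2 difference of -0.42 (SE 0.13, adjusted p = 0.0172). Piwil4, a Piwi protein, differed by -0.37 (SE 0.11, adjusted p = 0.0151). Of 21 meiotic genes, 10 were lower (47.6%, beside 14.9% of all genes), with a median of -0.34. Hormad2, a protein of unsynapsed meiotic chromosomes, had 2.80 to 4.82 FPKM in the Acta2-high set (median 3.46), against 4.09 to 7.48 FPKM in the Acta2-low set (median 5.23), a log2 difference of -0.53 (SE 0.12, adjusted p = 0.00488). Spermatid genes had a median of -0.81, but 1 of 13 was called (7.69%, beside 14.9% of all genes lower), the acrosomal gene Spaca1 at -0.36. That call was lost without any library but KO_PD 1, KO_PD 2, KO_PD 3, KO_vehicle 1 and WT_vehicle 3 (adjusted p up to 0.0922). Their spread was set by KO_vehicle 3, in the Acta2-low set, where spermatid genes took 1.43% of FPKM, against at most 0.0729% in any Acta2-high library and 0.0634% in any other Acta2-low library. In that library the protamine gene Prm1 reached 739 FPKM, and its log2 difference of -0.90 turned to 0.062 without it.

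Lists of DNA repair and the cell cycle held lower genes and no higher one. Of 19 genes of homologous recombination and crosslink repair, the pathways that mend busulfan crosslinks, 17 were lower and none higher, beside 14.9% of all genes lower, with a median of -0.25. Brca1 (ENSMUSG00000017146, chromosome 11, 101488764 to 101551955, minus strand) had 12 to 16.4 FPKM in the Acta2-high set (median 14.5), against 15.5 to 20.1 FPKM in the Acta2-low set (median 17.4). It was lower in each of the 4 groups without overlap (log2 difference -0.31, SE 0.07, adjusted p = 0.00487). The helicase gene Blm differed by -0.32 (SE 0.08, adjusted p = 0.00894). Of 23 replication genes, 13 were lower and none higher, and 10 did not pass (14.9% of all genes were lower). Pole, the catalytic subunit of a replicative polymerase, had 20.4 to 29.4 FPKM in the Acta2-high set (median 27.6), against 29.6 to 34.5 FPKM in the Acta2-low set (median 32.5), so every Acta2-high library lay below every Acta2-low one. Of 19 mitosis genes, 11 were lower and none higher, and 8 did not pass. Mki67, the proliferation marker, had 25.4 to 38 FPKM in the Acta2-high set (median 32.1), against 33.3 to 44.5 FPKM in the Acta2-low set (median 37.9), a log2 difference of -0.26 (SE 0.08, adjusted p = 0.0197). The call of Mki67 was lost with Acta2 as a continuous term (adjusted p = 0.0769) and with the near-tied KO_PD 1 and KO_PD 3 exchanged (-0.20, adjusted p = 0.0835). Of 17 ribosome biogenesis genes 4 were lower (23.5%, beside 14.9% of all genes), among them Heatr1 at -0.23. After quantile normalization the lower counts were 19 of 19 for repair, 21 of 23 for replication, 19 of 19 for mitosis and 16 of 17 for ribosome biogenesis, beside 32.3% of all genes under that scaling.

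Immediate early genes, which are transcribed within minutes of stimulation or of cell handling, were higher in 12 of 22 cases and lower in 1 (Egr2, -0.31), beside 26.0% and 14.9% of all genes, with a median of 0.68. The count of higher genes was 7 after quantile normalization, beside 20.6% of all genes. It stayed at 12 with median-centred libraries and when scaled to the total without the contractile list, beside 20.6% and 19.2% of all genes. Atf3, a stress-responsive transcription factor, had 65.6 to 416 FPKM in the Acta2-high set (median 255), against 51.1 to 183 FPKM in the Acta2-low set (median 103), a log2 difference of 1.13 (SE 0.32, adjusted p = 0.0131). Its difference was 2.50 in WT_PD and 0.42 to 0.89 in the other groups. Jun, a subunit of the factor AP-1, differed by 0.63, a call lost after quantile normalization (adjusted p = 0.0589), whereas Egr1 was not called at 0.07 (SE 0.15, adjusted p = 0.724). Of 14 targets of YAP, a mechanically regulated coactivator, 9 were higher and 1 lower (64.3% and 7.14%, beside 26.0% and 14.9% of all genes), with a median of 0.66. Axl, a receptor tyrosine kinase, had 46.1 to 82.4 FPKM in the Acta2-high set (median 57.4), against 15.2 to 39.2 FPKM in the Acta2-low set (median 30.1), with no overlap across groups. The growth factor gene Tgfb2 differed by 1.31 (SE 0.27, adjusted p = 0.00291). Ccn1, a matrix-associated protein that stands in both lists, differed by 0.97.

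Targets of p53, the factor activated by DNA damage, went in both directions. Of 20 genes, 6 were higher and 2 lower, shares near the 26.0% and 14.9% of all genes. Their median of 0.09 became -0.003 with median-centred libraries. Perp, an adhesion and cell death gene, had 25.5 to 75.0 FPKM in the Acta2-high set (median 47.0), against 4.44 to 35.3 FPKM in the Acta2-low set (median 13.5), a log2 difference of 1.69 (SE 0.32, adjusted p = 0.00211). The death receptor gene Fas differed by 1.18. Cdkn1a, the cell cycle inhibitor p21, had 6.16 to 27.2 FPKM in the Acta2-high set (median 18.4), against 5.34 to 13.9 FPKM in the Acta2-low set (median 8.20), a log2 difference of 0.80 (SE 0.27, adjusted p = 0.031). This call was lost without any 1 of KO_PD 4, KO_vehicle 4, WT_vehicle 1 and the 4 WT_PD libraries (adjusted p up to 0.0691). The apoptosis gene Pmaip1 was lower, at -0.38. Heat shock genes were also divided, with 2 of 10 higher and 3 lower, beside 26.0% and 14.9% of all genes. The small heat shock protein gene Hspb1 differed by 1.21 (SE 0.29, adjusted p = 0.00566) and the cochaperone Bag3 by 0.78. Hsph1, a nucleotide exchange factor of Hsp70, had 10.0 to 12.7 FPKM in the Acta2-high set (median 11.7), against 13.1 to 17.6 FPKM in the Acta2-low set (median 16), with no overlap across groups (log2 difference -0.41, SE 0.07, adjusted p = 0.00187).

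Among 17 genes read as output of ERK signalling, 7 were higher (41.2%, beside 26.0% of all genes) and none lower, with a median of 0.23. Among them were the growth regulator Myc at 0.91, the ephrin receptor gene Epha4 at 0.70, the transcription factor gene Etv1 at 0.65 and Spry4 at 0.48. Under quantile normalization 6 were higher and 2 lower, beside 20.6% and 32.3% of all genes. Other genes much used as readouts of ERK did not pass: the phosphatase gene Dusp6 differed by -0.09 (SE 0.10, adjusted p = 0.474) and Etv5 by -0.14 (SE 0.08, adjusted p = 0.177).

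Spry4, the targeted gene, had 12 to 27.4 FPKM in the Acta2-high set (median 20.6), against 7.28 to 22.6 FPKM in the Acta2-low set (median 13.4), a log2 difference of 0.48 (SE 0.11, adjusted p = 0.00617). The difference was 0.71 in KO_PD, 0.60 in KO_vehicle, 0.50 in WT_PD and 0.11 in WT_vehicle. Within the Acta2-high set Spry4 averaged 14.7 ± 3.25 FPKM in knockout libraries and 24.0 ± 2.36 FPKM in wild-type libraries (SD, n = 4 each), or 61.4% of wild type. Within the Acta2-low set it averaged 9.14 ± 1.68 FPKM in knockout libraries and 19.5 ± 2.76 FPKM in wild-type libraries (SD, n = 4 each), or 46.9% of wild type. In each set every knockout library lay below every wild-type library, so the targeted gene followed the genotype labels. These shares are a description of 4 libraries each. A deletion of part of the gene can leave counted reads, but the source of the reads in knockout libraries was not tested.

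**Figure D4:**
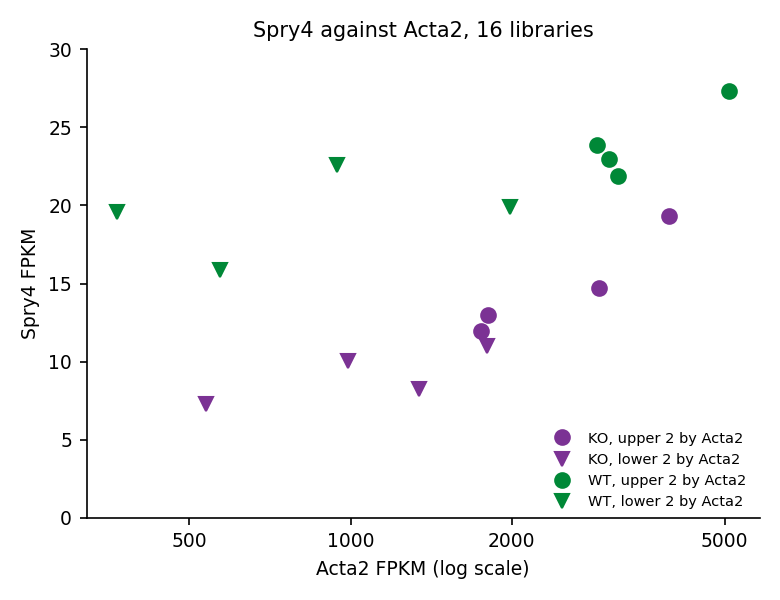
Spry4 FPKM against Acta2 FPKM (log axis) in the 16 libraries, with knockout and wild type in different colours and the upper and lower 2 by Acta2 as circles and triangles. Knockout libraries reached 19.3 FPKM of Spry4 in the library with the most Acta2 among them, against 7.28 FPKM in the one with the least.

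Energy metabolism genes were higher in part. Of 19 nuclear genes of oxidative phosphorylation, 10 were higher (52.6%, beside 26.0% of all genes) and none lower, with a median of 0.30. Under the other scalings 7 or 8 were higher. Ndufb7, a subunit of complex I, had 7.11 to 13.8 FPKM in the Acta2-high set (median 9.43), against 3.64 to 8.07 FPKM in the Acta2-low set (median 6.79), a log2 difference of 0.62 (SE 0.15, adjusted p = 0.00697). None of the 12 mitochondrially encoded genes was called, and their median of 0.02 turned negative under the other scalings. Of 16 glycolysis genes, 8 were higher and 1 lower, beside 26.0% and 14.9% of all genes. Pfkl, the liver isoform of phosphofructokinase, had 4.61 to 11.4 FPKM in the Acta2-high set (median 7.68), against 2.22 to 5 FPKM in the Acta2-low set (median 3.44), a log2 difference of 0.99 (SE 0.17, adjusted p = 0.00176). Tpi1 and Ldha, other enzymes of the pathway, differed by 0.82 and 0.74. Of 19 cholesterol synthesis genes, Pmvk was higher, at 0.75, and Dhcr7 and Hsd17b7 were lower, at -0.25 and -0.15. Both lower calls were lost with KO_PD 1 and KO_PD 3 exchanged (adjusted p = 0.0913 and 0.108), and 3 of 19 called is below the 40.9% of all genes. Of 80 ribosomal protein genes, 4 were higher (5%) and 1 lower (1.25%), beside 26.0% and 14.9% of all genes. Their median of 0.07 turned to between -0.14 and -0.03 under the other scalings. After quantile normalization 35 of the 80 were lower, beside 32.3% of all genes. With median-centred libraries only 4 of the 80 were lower, beside 32.0% of all genes. Scaled to the total without the contractile list, 10 of the 80 were lower, beside 34.1% of all genes.

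Of the genes outside the lists without overlap in any of the 4 groups, the 12 lower ones named by the rule moved less than the 12 higher ones. Without that requirement the differences of genes called lower reached -1.26, and Zfp981 had -1.09. Eml5, a microtubule-associated protein gene, had 2.74 to 6.63 FPKM in the Acta2-high set (median 4.02), against 4.75 to 9.08 FPKM in the Acta2-low set (median 6.67), a log2 difference of -0.66 (SE 0.14, adjusted p = 0.00312). Dnah8, an axonemal dynein heavy chain, differed by -0.51 and Cd274, the immune checkpoint ligand PD-L1, by -0.47. Cpeb1, which controls translation in germ cells, had 11.2 to 14.8 FPKM in the Acta2-high set (median 13.7), against 14.8 to 20.1 FPKM in the Acta2-low set (median 18.1), a log2 difference of -0.40 (SE 0.07, adjusted p = 0.0018). Actn2, an actinin of striated muscle, was lower at -0.42 (SE 0.07, adjusted p = 0.00176), opposite to Tcap and Xirp1. The small nucleolar RNA gene Snord71 had the largest negative difference of the 12 named, at -0.92 (SE 0.21). Its exon length is 85 bases, so its 1.09 to 8.48 FPKM stand for few reads per library. Small nucleolar RNAs carry no polyA tail, and the libraries were made from polyA RNA. The other 6 of the 12, Dusp18, Bnc1, Mtfr2, Liat1, Cfap20dc and Hspbap1, had log2 differences from -0.50 to -0.39.

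The interaction of group and set tested whether the differences were unlike between the 4 groups. No gene passed with limma (0 of 12906, or 0%; smallest adjusted p = 0.866; 704 genes at an unadjusted p under 0.05). The difference between genotypes in the Acta2 contrast also gave 0 genes (910 at an unadjusted p under 0.05), as did that between treatments (148). In the 8 knockout libraries alone, 0 genes passed and 3576 had an unadjusted p under 0.05, against 2511 higher and 553 lower genes in the 8 wild-type libraries alone. The Acta2 difference itself was widest in WT_PD, as were those of all 12 higher genes named outside the lists. Vim, for example, differed by 3.80 in WT_PD, against 0.80 in KO_PD, 1.65 in KO_vehicle and 1.31 in WT_vehicle. Some other genes differed most in KO_vehicle, such as Notch3 (1.63, against 1.14 in WT_PD) and Zfp981 (-2.09, against -0.90 in WT_PD). The column names carry consecutive library numbers, which were divided into the lower 8 and the upper 8; the labels do not call these batches. The upper numbers held 5 of 8 Acta2-high and 3 of 8 Acta2-low libraries. In WT_PD both Acta2-high libraries had upper and both Acta2-low libraries lower numbers, so the numbers and the sets cannot be told apart within that group. With the number run as a term over all libraries, 3248 genes were higher and 1810 lower.

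**Figure D5:**
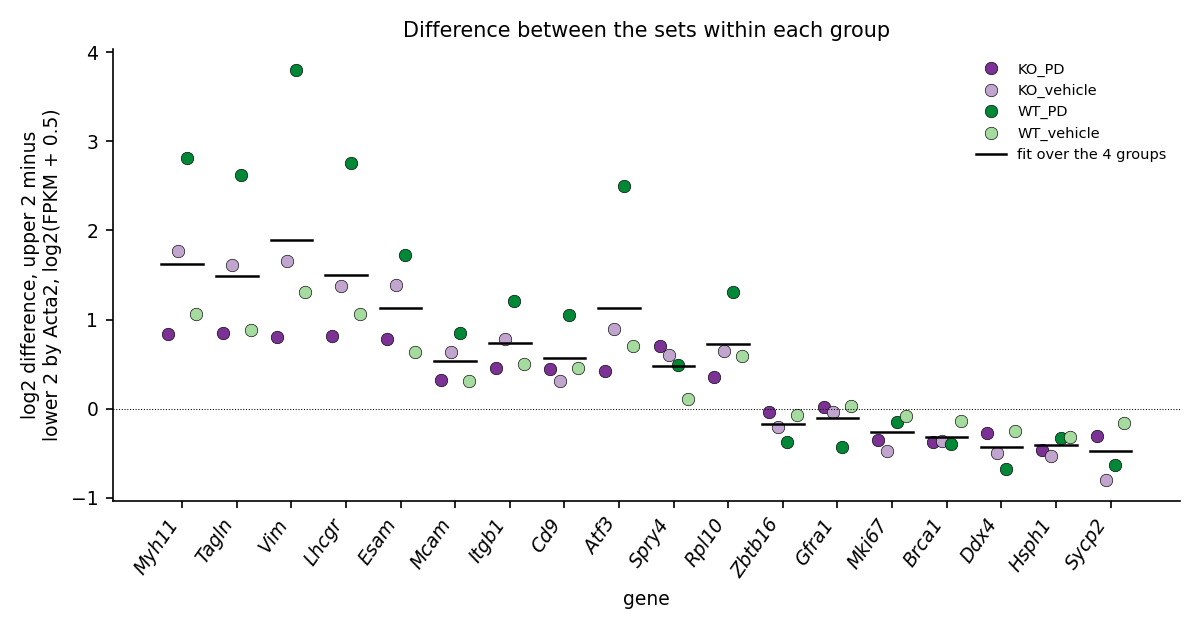
Log2 difference, upper 2 minus lower 2 libraries by Acta2, on the log2(FPKM + 0.5) scale, for 18 genes within each group (points) and as fitted over the 4 groups (lines). WT_PD has the largest value for Vim (3.80) and Myh11 (2.81), while Spry4 is largest in KO_PD (0.71) and Brca1 is below 0 in all 4 groups.

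The share of lower genes increased with exon length. Over 4 equal bins of exon length, shortest to longest, the median log2 difference was 0.0037, 0.029, 0.013 and -0.019, the share of higher genes ran from 23.0% to 28.1%, and the share of lower genes was 10.5%, 14.1%, 15.4% and 19.6%. By level, genes with a mean of at least 100 FPKM were higher in 35.5% and lower in 7.37% of cases. Genes under 5 FPKM were higher in 24.4% and lower in 13.8%.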

How the data were processed

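The authors deposited one table of FPKM values for 16383 genes in 16 libraries, made from polyA RNA of sorted cells with a stranded kit, per the labels. Per the submitters' processing notes, STAR 2.7.10a, edgeR 4.0.14 and FastQC and the builds mm10 and GRCm39 were involved, in roles that the notes leave out. The read counter and the gene lengths are not stated. Of the symbols, 15791 (96.4%) matched GENCODE M21 (GRCm38), which gave identifiers, positions and exon lengths.

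Within each of the 4 groups the libraries were ranked by Acta2 FPKM. The members, gene lists and rules were chosen with earlier results of these data known. The 12906 genes with at least 1 FPKM in at least 4 libraries, Acta2 excepted, were tested on log2(FPKM + 0.5) with limma 3.58.1 in R 4.3.3, with a variance trend, the group as a block and Benjamini-Hochberg adjustment over all genes tested (threshold 0.05). All log2 differences are on that scale, which understates the change of low genes. Another 3476 genes were below the filter. The interaction of group and set was an F-test in limma. Single values of a library were tested by exact permutation within groups. The model was tested on simulated data.

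Depth was estimated from the low values: with the smallest divisor that turns a library's FPKM into whole reads (93.0% to 94.3% of values under 100 reads within 0.1 of a whole number), 1 FPKM stood for 23.4 to 36.6 reads per kilobase. Divisors ran from 23366500 to 36618500, and whether they hold a scaling factor is not known. Named genes were Acta2, Myh11, Tagln and 12 germ cell and signalling genes, up to 3 called genes per list with the largest difference, and the 12 largest called differences in each direction outside the lists among genes with a mean of at least 5 FPKM and no overlap in any group. Other genes were named after their values were seen. Alternatives covered the pseudocount, the filter, scaling, the splitting gene, single genotypes, voom on recovered reads, a replicate block and leaving out each library.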

Additional observations from a re-analysis of the deposited data

Results flagged for a closer look

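In 16 of 290 tests of a set of 8 libraries, 1 library stood apart from the others by Dixon's ratio, where chance alone gives about 1 in 20. Of these, 6 came from WT_PD 3, the library with the most Acta2, within the Acta2-high set: Itgb1 at 302.6 FPKM (others 156 to 208), Etv1 at 3.69 FPKM (others 1.21 to 2.05), Mrgprh at 22.7 FPKM (others 8.81 to 12), Olfml2a at 61.8 FPKM (others 25.3 to 36.2), Pole at 20.4 FPKM, below the others at 25.1 to 29.4, and Fn1 at 21.2 FPKM, below the others at 26.2 to 30. In the Acta2-high set, Sohlh2 in KO_vehicle 4 had 19.9 FPKM (others 23.4 to 26.7), and ribosomal protein genes in KO_PD 4 took 5.76% of FPKM (others 4.28% to 4.98%). In the Acta2-low set, KO_vehicle 3 had 12805 genes at 1 FPKM or more (others 12257 to 12503), 1.43% of FPKM in spermatid genes (others up to 0.0634%), Liat1 at 15.0 FPKM (others 7.51 to 10.1), Rpl39l at 149 FPKM (others 108 to 125) and Pdha2 at 9.58 FPKM (others 4.09 to 6.15). In the same set, Mtfr2 in KO_vehicle 2 had 9.49 FPKM (others 11.7 to 12.7), Zfp981 in KO_PD 3 had 3.6 FPKM (others 6.66 to 9.98) and Zbtb16 in WT_vehicle 4 had 112.4 FPKM (others 119 to 125).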

How the results depend on the processing

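The counts of 3355 higher and 1922 lower genes changed most with the libraries used and with scaling. Leaving out 1 library at a time gave 2773 (without WT_PD 1) to 3651 higher genes and 1114 (without WT_PD 1) to 2247 lower genes. Without the 4 WT_PD libraries, an alternative added after seeing the data, 1812 were higher and 347 lower. Knockout libraries alone gave 0 and 0, and wild-type libraries alone 2511 and 553. Lower genes numbered 4134 with median-centred libraries, 4175 after quantile normalization and 4403 scaled to the total without the contractile list. With the replicate number as a block, 3062 genes were higher and 1343 lower. The numbers do not pair the libraries: over 24 same-number pairs the correlation of deviations ran from -0.53 to 0.73, 10 exceeded 0.1, and 5 of 16 libraries correlated best with their own number. Exchanging KO_PD 1 and KO_PD 3, also added after seeing the data, gave 3486 and 1987, of which 3012 and 1307 were called before, and leaving both out gave 3626 and 2221. The pseudocount, the filter on low values, the variance trend, voom, Acta2 as a continuous term and the split by Myh11 or Tagln kept both counts within 1.5 times.

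With 1 library left out, the difference in the estimated library divisor ran from -900550 to 1990020, that in genes at 1 FPKM or more from -81.8 to 49.5, and that in the ribosomal protein share from -0.465 to -0.181 percentage points, the last with exact permutation p from 0.00617 to 0.261. Genes without a call that changed sign were Gfra1 (0.000799 without WT_PD), Kit (0.30 in wild type, 0.010 with KO_PD 1 and KO_PD 3 exchanged and -0.19 to 0.018 with 1 library left out), Dusp6 (0.072 in knockouts), Nanos2 (0.036 in knockouts), Neurog3 (0.19 in knockouts, 0.11 without WT_PD), Rgs5 (-0.022 after quantile normalization, -0.20 in wild type), Col1a1 (0.016 with KO_PD 1 and KO_PD 3 exchanged), Egr1 (-0.031 median-centred, -0.16 after quantile normalization, -0.061 without the contractile total, -0.015 in wild type, -0.031 to 0.16 with 1 library left out) and Prm1 (-1.46 to 0.062 with 1 library left out). Of 138 genes recomputed singly, 122 were called, and 19 of these lost the call when some single library was left out. Of the 122, 56 lost it without WT_PD, 45 in wild type alone, all 122 in knockouts alone, 13 with the replicate block, 9 with KO_PD 1 and KO_PD 3 exchanged, 7 after quantile normalization and at most 4 under each other setting; none changed sign. The interaction gave 0 genes in all 8 settings run, with 604 to 793 at an unadjusted p under 0.05. The causes were not tested.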

Other observations

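The ribosomal protein genes differed by chromosome. The 4 X-linked ones tested had log2 differences of 0.73 (Rpl10), 0.69 (Rps4x), 0.63 (Rpl39) and 0.23 (Rpl36a, adjusted p = 0.0613, not called, but called without any 1 of KO_PD 1, KO_vehicle 1, WT_vehicle 2 and WT_vehicle 4), against a median of 0.06 and a range of -0.41 to 0.26 for the 76 autosomal ones. Rpl10 had 69.6 to 136 FPKM in the Acta2-high set (median 102), against 43.2 to 77.6 FPKM in the Acta2-low set (median 58.4). The X chromosome as a whole had values close to those of the autosomes: its 473 genes tested had a median of -0.02, with 27.9% higher and 15.0% lower, against 0.01, 26.1% and 14.9% for autosomal genes. The autosomal copies of these ribosomal genes had other values. Rpl39l, a copy known from male germ cells, differed by -0.24 (SE 0.07, limma adjusted p = 0.0138), with 89.1 to 113 FPKM in the Acta2-high set against 108 to 149 FPKM in the Acta2-low set, while Rpl10l and Rps4l, which the annotation lists as a transcribed pseudogene, were not called at -0.07 each. Outside the ribosome, the X-linked Pdha1, a subunit of pyruvate dehydrogenase, differed by 0.53 and its autosomal copy Pdha2 by -0.21 (adjusted p = 0.193, and 0.0420 without KO_vehicle 2). X-linked Pgk1, a glycolytic enzyme, differed by 0.47. Reads of near-identical copies can be split between them in counting, so these values are uncertain. These genes were chosen after their values were seen.

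Zfp981, a zinc finger gene on chromosome 4, had 0.701 to 5.17 FPKM in the Acta2-high set (median 4.38), against 3.6 to 9.98 FPKM in the Acta2-low set (median 8.43), a log2 difference of -1.09 (SE 0.27, adjusted p = 0.00658). Zinc finger genes of this family have near-identical copies, so its reads may be shared, and it was chosen after its values were seen.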
